A study of Arabidopsis thaliana with 30 samples.

Results

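The members described here are 9 genes of basic leucine zipper (bZIP) transcription factors of Arabidopsis thaliana, chosen by locus among the 33602 genes listed for each library. Of these, 8 belong to the group that acts in the response to abscisic acid (ABA): ABF1, ABF2, ABF3, ABF4, ABI5, EEL, DPBF2 and AREB3. The other, GBF3, belongs to the group of G-box binding factors. All 9 loci were found. Of them, 8 passed the filter on low counts, and DPBF2 had no count in any library. The choice by locus used no measured value, but it was made with earlier results of these data known.

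RNA of 30 libraries was sequenced from 5-day-old seedlings, which had spent 1 day in continuous light and then 4 days in darkness. For 2 h, Col-O (wild type) seedlings lay in liquid medium with IAA (indole-3-acetic acid, the main natural auxin) or with ABA, both at 10 µM, or with ethanol alone, which is called mock here. The line aba2-3, mutated in a gene of ABA biosynthesis, received IAA or mock only, so no ABA treatment of the mutant was measured. After treatment the seedlings were divided into root and shoot, which gives 10 groups of 3 libraries: Col-O mock, IAA and ABA in root and in shoot, and aba2-3 mock and IAA in root and in shoot. All groups share the dark growth, the sucrose-containing medium and the transfer to liquid medium. Only 1 mutant line was used, and the labels do not say whether replicates came from separate cultures, so the p-values measure the spread between these samples, which may be technical.

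ABA is bound by soluble receptors of the PYR/PYL family, which then inhibit protein phosphatases of clade A (PP2Cs). SnRK2 kinases, freed from these phosphatases, phosphorylate the ABF-type bZIP factors. These bind the ABA-responsive element (ABRE), a promoter motif built around ACGTG, and switch on genes of drought and seed tolerance. ABF2 (also AREB1), ABF3 and ABF4 (also AREB2) act together in vegetative tissue under water deficit, and ABF1 is their close relative. ABI5 is best known from seeds and young seedlings, where it holds back growth after germination. EEL, DPBF2 and AREB3 are relatives known mainly from developing seeds. GBF3 binds the G-box, CACGTG, which contains the same core.

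As deposited, ABF1 (AT1G49720) lies at chr1:18400092-18402628 on the plus strand and ABF2 (AT1G45249) at chr1:17165127-17167907 on the minus strand. ABF3 (AT4G34000) lies at chr4:16295430-16298255 on the plus strand and ABF4 (AT3G19290) at chr3:6687140-6690123 on the plus strand. ABI5 (AT2G36270) lies at chr2:15204764-15207528 on the minus strand and EEL (AT2G41070) at chr2:17130774-17132386 on the plus strand. DPBF2 (AT3G44460) lies at chr3:16079976-16081906 on the minus strand, AREB3 (AT3G56850) at chr3:21046341-21048516 on the minus strand, and GBF3 (AT2G46270) at chr2:19000191-19003403 on the plus strand. Counts were summed over the exons of each gene. Exons of ABF1 share 123 bases with AT1G49730, and those of ABF4 share 6 bases with AT3G19300, in both cases a gene of the opposite strand. Whether counting used strand is not given in the sources used here, so reads of those bases cannot be assigned and the ABF1 counts are uncertain to that extent. No 50-base stretch of the exons of any member occurs elsewhere in the genome, so reads are not shared with a near-identical copy.

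The bases before each gene are shown for 5 members because these windows differ in the motif that the factors themselves bind. Each window holds the 250 bases just before the gene start in RefSeq's annotation of TAIR10.1, written 5′ to 3′ on the gene's own strand. Capitals mark ACGTG on either strand, so that CACGTG marks a G-box and CACGT the reverse complement of ACGTG. ABI5 and GBF3 hold several such motifs, ABF3 holds 1, and ABF2 and AREB3 hold none.
ABI5 (chr2:15207637-15207886, minus strand): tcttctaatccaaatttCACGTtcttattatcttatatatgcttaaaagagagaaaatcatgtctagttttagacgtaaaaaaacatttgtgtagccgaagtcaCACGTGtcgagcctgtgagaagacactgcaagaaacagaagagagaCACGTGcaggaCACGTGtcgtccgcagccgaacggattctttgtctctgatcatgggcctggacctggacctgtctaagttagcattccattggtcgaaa
GBF3 (chr2:18999930-19000179, plus strand): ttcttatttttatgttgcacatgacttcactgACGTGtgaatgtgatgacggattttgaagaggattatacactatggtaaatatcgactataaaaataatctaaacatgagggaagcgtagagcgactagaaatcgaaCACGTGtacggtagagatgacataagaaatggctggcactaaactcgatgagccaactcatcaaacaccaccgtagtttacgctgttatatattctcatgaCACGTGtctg
ABF3 (chr4:16295084-16295333, plus strand): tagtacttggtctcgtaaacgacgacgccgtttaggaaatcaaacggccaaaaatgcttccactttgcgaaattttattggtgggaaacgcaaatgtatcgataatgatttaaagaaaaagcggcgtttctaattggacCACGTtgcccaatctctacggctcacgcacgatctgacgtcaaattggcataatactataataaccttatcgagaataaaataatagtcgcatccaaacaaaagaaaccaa
ABF2 (chr1:17167925-17168174, minus strand): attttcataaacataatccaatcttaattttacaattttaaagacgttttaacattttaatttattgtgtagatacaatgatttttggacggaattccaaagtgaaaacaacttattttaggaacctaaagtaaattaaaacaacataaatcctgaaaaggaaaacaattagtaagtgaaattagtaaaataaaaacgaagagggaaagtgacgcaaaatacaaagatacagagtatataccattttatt
AREB3 (chr3:21048615-21048864, minus strand): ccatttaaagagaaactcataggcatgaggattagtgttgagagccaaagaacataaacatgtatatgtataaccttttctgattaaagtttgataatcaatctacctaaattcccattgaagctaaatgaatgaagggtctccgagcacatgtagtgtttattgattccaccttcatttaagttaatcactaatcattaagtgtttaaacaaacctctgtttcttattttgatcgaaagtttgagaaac

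Searched on both strands, ACGTG was present in the windows of 6 of the 9 members, ABF1, ABF3, ABF4, ABI5, DPBF2 and GBF3, and in 22.9% of all 27443 gene windows of this length. CACGTG was present in 2 of 9, ABI5 with 3 copies and GBF3 with 2, and in 6.49% of all windows. The longer form ACGTGTC, which can overlap a G-box, was present in 3 of 9, ABI5, DPBF2 and GBF3, against 3.68% of all windows. The form ACGTGGC was present in 0 of 9, against 3.37%. In windows of 1000 bases, 8 of 9 members held ACGTG against 54.4% of all genes, and the exception was ABF2. A match is a description of these letters and not a site of binding. For EEL the RefSeq start lies well before the deposited one, so its window ends upstream of the exons that were counted.

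Levels are given as CPM, the usual depth-scaled read count, on library sizes scaled by the trimmed mean of M-values (TMM), which corrects for differences in library composition. Library totals ran from 3871038 to 99263091 counts, with a median of 23.2 M counts. The shallowest was aba2-3 IAA shoot replicate 3, in which ABI5 rested on 14 counts, EEL on 17 and ABF1 on 52. ABA2, the gene mutated in aba2-3, was transcribed in both genotypes, at 14.4 to 27.7 CPM in Col-O roots and 17.9 to 30.4 CPM in aba2-3 roots. In shoots it ran from 7.36 to 14.2 CPM in Col-O and from 7.77 to 11.3 CPM in aba2-3, so its RNA level does not tell the lines apart. The labelled organs were checked with marker genes. The 7 shoot markers, all genes of photosynthesis, summed to 160 to 6330 CPM in root libraries and to 20900 to 78200 CPM in shoot libraries. The 7 root markers summed to 448 to 801 CPM in roots and to 272 to 556 CPM in shoots, so these ranges overlap. PIN2, COBL9, RHD6 and WOX5 were higher in every root library than in every shoot library, and COBL9 was at 0 in 1 shoot library. CASP1, CASP2 and MYB36 overlapped between the organs, and CASP2 had a median of 80.9 CPM in roots and 87.0 CPM in shoots. A share of RNA from the other organ was estimated from genes found almost only in root or in shoot of the aba2-3 IAA groups. The medians of those groups also set the reference level, so their own shares are mostly low by that choice. In Col-O ABA roots the root genes reached 45.3%, 42% and 35.5% of this level, against 79.8%, 80.1% and 78.2% in mock roots. The shares are thus estimates from genes that also vary between groups. The estimated share exceeded 5% in 6 libraries. These were Col-O mock root 3, IAA root 2, ABA root 2 (10.9%) and ABA root 3 (6.13%), aba2-3 mock root 1, and aba2-3 IAA shoot 3 (7.68%). Col-O mock shoot replicate 1 also stood apart, since its shoot genes reached 39.8% of the reference level, against at least 69.3% in the other shoot libraries. In whole organs, fewer cells of a type and less RNA per cell cannot be told apart.

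**Figure D1:**
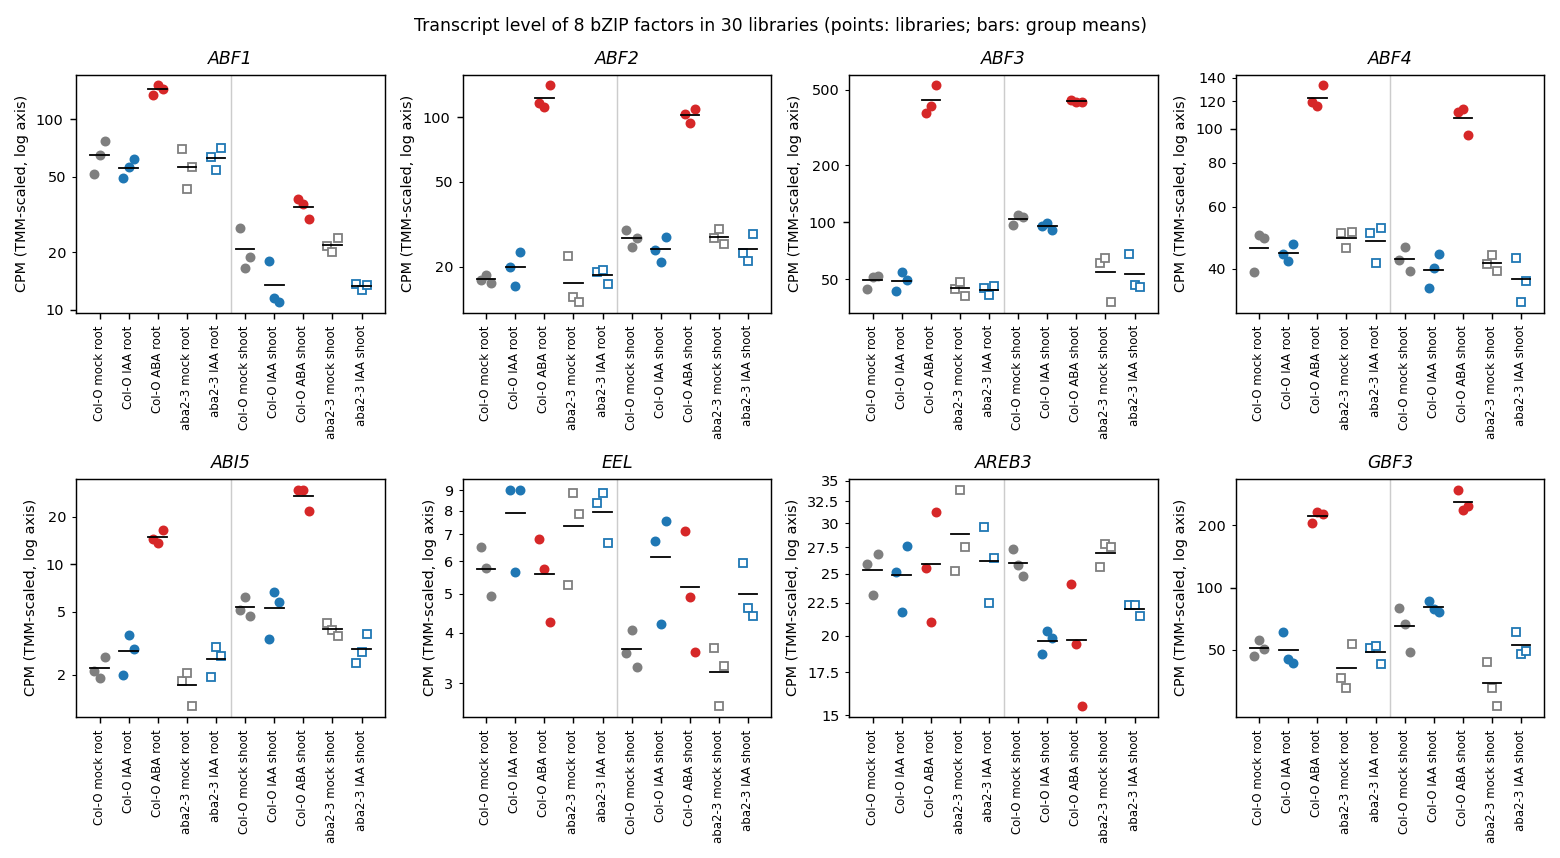
Level of 8 factors in each of 30 libraries, in TMM-scaled CPM on a log axis whose range differs between panels. Filled circles are Col-O, open squares aba2-3, grey mock, blue IAA and red ABA, with a bar at each group mean and a vertical line between root and shoot. For ABF3 the 6 ABA libraries lie between 379 and 528 CPM, above all other libraries, while the ABA libraries of EEL and AREB3 lie among the rest.

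Per length, ABF1 was the most abundant member in Col-O mock roots and ABF3 in mock shoots. In the deposited RPKM, which divides CPM by exon length, mock roots held ABF1 at 44.9 ± 8.62, GBF3 at 30.0 ± 2.79, ABF4 at 28.2 ± 3.63 and ABF3 at 26.5 ± 2.24 (RPKM, mean ± SD, n = 3). AREB3 followed at 16.6 ± 1.13 RPKM and then ABF2. EEL at 4.53 ± 0.662 RPKM and ABI5 at 1.45 ± 0.209 RPKM were the lowest of the detected members. In mock shoots the order began with ABF3 at 47.8 ± 0.947 RPKM and GBF3 at 33.0 ± 9.11 RPKM, and ABF1 stood at 12.5 ± 3.85 RPKM. ABI5 reached 3.02 ± 0.408 RPKM there and EEL 2.46 ± 0.255 RPKM. After ABA, ABF3 was the most abundant member in both organs, at 204 ± 29.3 RPKM in roots and 182 ± 9.12 RPKM in shoots. GBF3 was next, at 113 ± 10.3 and 120 ± 18.3 RPKM, and ABI5 reached 8.52 ± 0.482 RPKM in roots and 13.9 ± 2.77 RPKM in shoots. DPBF2 (also bZIP67), a seed factor, had 0 counts in all 30 libraries. A count of 0 allows up to 3 counts, which corresponds to 0.0302 CPM in the deepest library and 0.775 CPM in the shallowest, for counting error only.

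ABA raised 6 of the 8 tested members in roots and the same 6 in shoots. They were ABF1 to ABF4, ABI5 and GBF3, and their root increases ran from 2.22-fold for ABF1 to 8.90-fold for ABF3. EEL and AREB3 passed the test in neither organ. Over all 22156 genes tested, 8.31% were called higher with ABA in roots and 4.98% in shoots, at an adjusted p under 0.05 in edgeR's quasi-likelihood test. Called lower were 7.4% in roots and 4.67% in shoots, against 0 of 8 members in each, so that 15.7% and 9.65% of all genes were called in either direction. The median log2 fold change of the 8 members was 1.77 in roots, against -0.03 over all genes, and 1.62 in shoots, against -0.07. For each of the 6 members that rose, the 3 ABA libraries of an organ lay above all 12 other libraries of that organ. This describes members already called, and the share of all genes separated in this way was not counted.

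ABF3, a main ABF of vegetative tissue, showed the largest root response of the members. In mock roots its libraries stood at 44.4, 51.7 and 52.0 CPM, and in ABA roots at 379, 412 and 528 CPM. The log2 fold change was 3.15 ± 0.18 (SE; edgeR adjusted p = 3.67e-12). In shoots ABF3 went from 97.1, 109 and 107 CPM in mock to 442, 432 and 430 CPM with ABA. The groups are far apart, with a log2 fold change of 2.06 ± 0.18 (edgeR adjusted p = 5.90e-09). The shoot thus started from a higher mock level, and the ABA levels of the organs overlapped.

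ABF2 (AREB1), which acts with ABF3 and ABF4, was less abundant and responded nearly as steeply. Its libraries stood at 17.3, 18.3 and 16.7 CPM in mock roots and at 117, 112 and 141 CPM in ABA roots. The log2 fold change was 2.82 ± 0.18 (edgeR adjusted p = 1.13e-11). In shoots it moved from 29.7, 24.8 and 27.3 CPM to 103, 94.4 and 109 CPM. That is a log2 fold change of 1.91 ± 0.17 (edgeR adjusted p = 1.18e-08), with no overlap between mock and ABA. ABF4 (AREB2) rose by less and by similar amounts in both organs. In roots it stood at 39.0, 49.8 and 49.0 CPM in mock and at 119, 116 and 133 CPM with ABA, a log2 fold change of 1.42 ± 0.13 (edgeR adjusted p = 9.06e-09). In shoots it stood at 42.2, 46.0 and 39.3 CPM in mock and at 112, 114 and 96.0 CPM with ABA, a log2 fold change of 1.34 ± 0.13 (edgeR adjusted p = 4.78e-08). All 6 ABA libraries lay above all 24 others for ABF4, as they did for ABF2. For how many of all genes this holds was not counted.

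ABF1 was the member with the smallest called response. Its root libraries moved from 51.4, 65.2 and 77.3 CPM to 135, 151 and 145 CPM, a log2 fold change of 1.15 ± 0.20 (edgeR adjusted p = 0.000133). Its shoot libraries moved from 27.0, 16.6 and 18.8 CPM to 38.3, 35.7 and 30.1 CPM, a log2 fold change of 0.74 ± 0.20 (edgeR adjusted p = 0.0165). The shoot groups do not overlap, but ABA shoots stayed below mock roots. The shoot call was lost without mock shoot replicate 2 (log2 fold change 0.63, adjusted p = 0.104), without mock shoot replicate 3 (0.70, adjusted p = 0.0814) and when only the compared groups were fitted (0.80, adjusted p = 0.0595).

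ABI5, the seed and seedling factor, rose from low levels. In roots it stood at 2.1, 1.91 and 2.58 CPM in mock and at 14.5, 13.7 and 16.6 CPM with ABA, a log2 fold change of 2.77 ± 0.26 (edgeR adjusted p = 1.85e-08). These mock values rest on 50 to 55 counts per library. In shoots it stood at 5.14, 6.21 and 4.71 CPM in mock and at 29.5, 29.7 and 21.8 CPM with ABA, a log2 fold change of 2.33 ± 0.25 (edgeR adjusted p = 2.85e-07). ABI5 libraries lay higher in shoots than in roots both in mock and with ABA. In RPKM, its mean of 13.9 in ABA shoots stayed below the 26.5 of ABF3 in mock roots. GBF3, the G-box factor, rose 4.35-fold in roots and 4.00-fold in shoots. Its root libraries moved from 46.8, 55.8 and 50.5 CPM to 206, 233 and 227 CPM (log2 fold change 2.12 ± 0.20, edgeR adjusted p = 2.01e-08). Its shoot libraries moved from 80.0, 66.9 and 48.8 CPM to 298, 237 and 247 CPM (log2 fold change 2.00 ± 0.20, edgeR adjusted p = 9.15e-08). The mock shoot replicates of GBF3 were the more spread out, yet all lay far below the ABA values.

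EEL and AREB3, both known from seeds, gave no call with ABA. EEL stood at 6.53, 5.77 and 4.94 CPM in mock roots and at 6.81, 5.74 and 4.25 CPM in ABA roots, a log2 fold change of -0.04 ± 0.27 (edgeR adjusted p = 0.956). In shoots it stood at 3.57, 4.06 and 3.29 CPM in mock and at 7.14, 4.89 and 3.58 CPM with ABA, a log2 fold change of 0.51 ± 0.27 (edgeR adjusted p = 0.269). The EEL groups overlap in both organs. AREB3 stood at 25.9, 23.2 and 26.9 CPM in mock roots and at 25.5, 21.0 and 31.3 CPM with ABA, a log2 fold change of 0.04 ± 0.15 (edgeR adjusted p = 0.920). In shoots it stood at 27.4, 25.8 and 24.8 CPM in mock and at 24.1, 19.4 and 15.5 CPM with ABA, a log2 fold change of -0.40 ± 0.15 (edgeR adjusted p = 0.108). All 3 ABA shoot libraries of AREB3 lay below the mock libraries, and the difference passed the threshold when ABA shoot replicate 1 was left out (-0.51, edgeR adjusted p = 0.0444). For EEL and AREB3 a small change cannot be told from none at this spread.

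Of the 3 ABA root libraries, 2 had a raised estimated share of shoot RNA (10.9% and 6.13%), as did 1 mock root library. None of the 6 root calls was lost when these libraries were left out, which leaves 1 ABA root library whose spread is taken from the other groups. None was lost when shares of other-organ RNA were added as covariates.

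**Figure D2:**
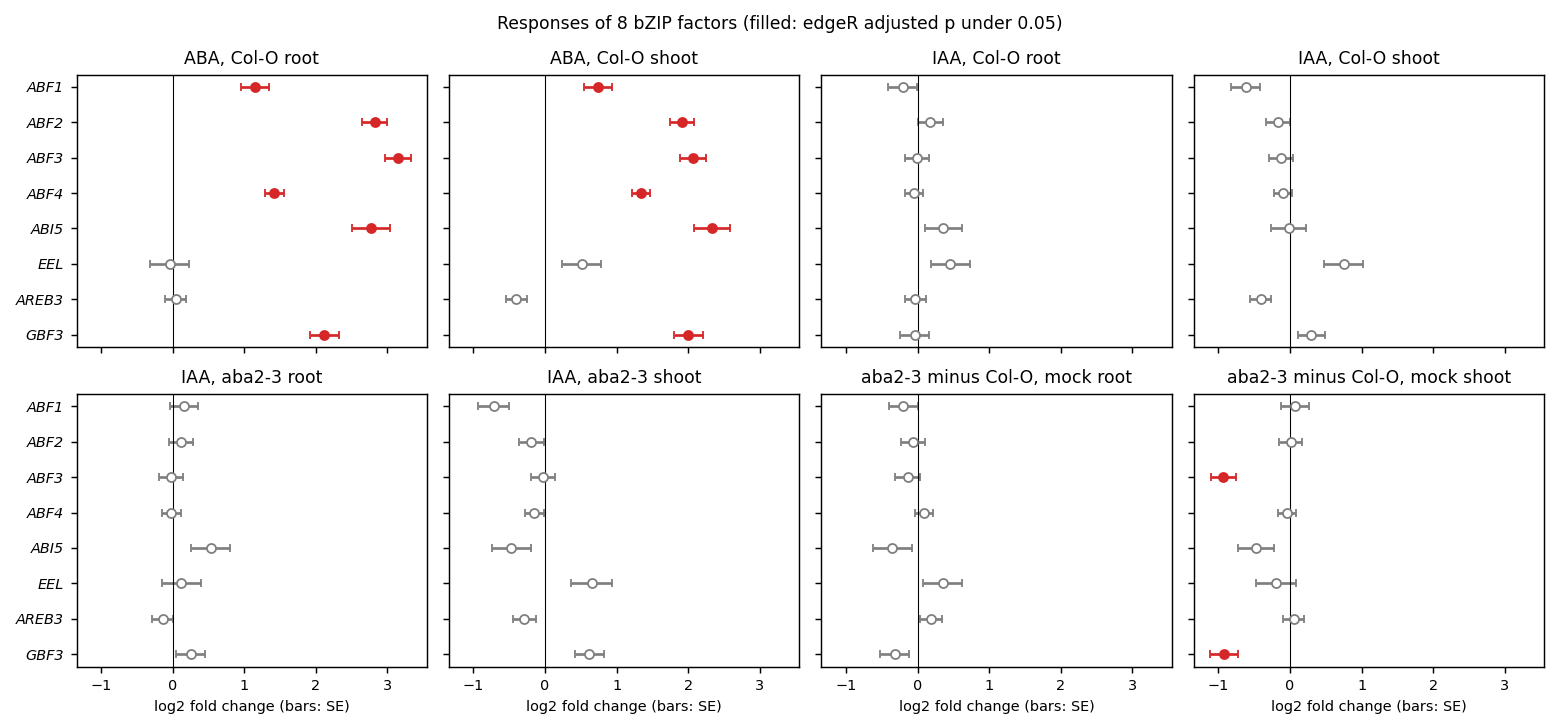
Log2 fold changes of 8 factors in 8 comparisons, with bars for 1 SE, and filled red points for calls at an edgeR adjusted p under 0.05. The ABA panels hold 6 filled points each, the 4 IAA panels hold none, and the mock shoot genotype panel holds ABF3 at -0.93 and GBF3 at -0.92.

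Whether the response differed between organs was tested as the root response minus the shoot response. For ABF3 the difference was 1.09 ± 0.24 on the log2 scale (edgeR adjusted p = 0.0166), and for ABF2 it was 0.91 ± 0.23 (edgeR adjusted p = 0.0422). In both cases the root response was the larger one, 8.90-fold against 4.17-fold for ABF3 and 7.07-fold against 3.76-fold for ABF2. These are 2 of 8 members, and 0.903% of all genes were called in this direction. The other 6 members gave differences between -0.55 for EEL and 0.44 for ABI5, none of them called. The ABF2 call is fragile, since it was lost in 9 of 12 fits that left out 1 library. The ABF3 call was lost in 2 of 12 such fits, without mock root replicate 1 (1.02, adjusted p = 0.0517) and without ABA root replicate 3 (0.92, adjusted p = 0.0686). When the libraries with raised RNA of the other organ were left out, both differences were smaller (ABF3 0.91, ABF2 0.79), and 1 ABA root library remained. With shares of other-organ RNA as covariates, ABF3 was called (1.14, adjusted p = 0.00877) and ABF2 was not (0.85, adjusted p = 0.07). When root and shoot libraries of the same treatment and number were taken as the same plant batch, neither was called (ABF3 1.04, edgeR adjusted p = 0.137, and ABF2 0.87, adjusted p = 0.136). The labels do not say that such libraries came from the same seedlings. The plant batch fit held only the compared groups and called 0.113% of all genes in either direction, so few genes of any kind were called in it. The same groups without the block called 0.732% of all genes and 2 of 8 members, and the first fit called 1.72%.

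**Figure D3:**
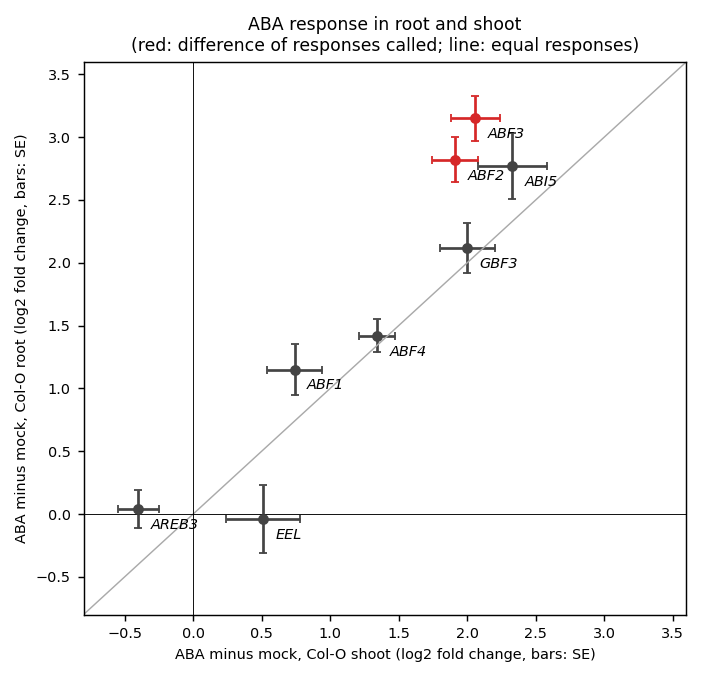
Log2 fold change with ABA in Col-O root (vertical axis) against Col-O shoot (horizontal axis) for 8 factors, with bars for 1 SE and a line of equal responses. ABF3 (3.15 in root, 2.06 in shoot) and ABF2 (2.82 and 1.91) stand above the line in red, and GBF3 and ABF4 lie close to it.

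IAA called none of the 8 tested members in any of its 4 comparisons. In Col-O roots 5.57% of all genes were called with IAA in either direction, in Col-O shoots 2.22%, in aba2-3 roots 11.8% and in aba2-3 shoots 1.92%. By direction, 2.64% were higher and 2.92% lower in Col-O roots, and 0.921% and 1.3% in Col-O shoots. In aba2-3 it was 7.02% and 4.82% in roots, and 1.4% and 0.515% in shoots. At an unadjusted p under 0.05 there were 0 members in Col-O roots, 3 in Col-O shoots, 0 in aba2-3 roots and 3 in aba2-3 shoots. The shares of all genes given above are at an adjusted p under 0.05, and none was taken at the looser threshold. DESeq2 called 1 member, GBF3 in aba2-3 shoots (log2 fold change 0.66, adjusted p = 0.0308), and none in the other comparisons. In roots the log2 fold changes with IAA ran from -0.21 (ABF1) to 0.46 (EEL) in Col-O and from -0.14 (AREB3) to 0.53 (ABI5) in aba2-3.

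In shoots ABF1 and EEL had an unadjusted p under 0.05 in both genotypes, AREB3 only in Col-O and GBF3 only in aba2-3, and none of these was called. ABF1 stood at 27.0, 16.6 and 18.8 CPM in Col-O mock shoots and at 18, 11.5 and 11 CPM with IAA, a log2 fold change of -0.62 ± 0.20 (edgeR adjusted p = 0.103). In aba2-3 shoots it stood at 21.5, 20 and 23.8 CPM in mock and at 13.6, 12.7 and 13.5 CPM with IAA, a log2 fold change of -0.72 ± 0.21 (edgeR adjusted p = 0.0790). The Col-O groups overlap and the aba2-3 groups do not. The labels do not say whether same-numbered IAA and mock libraries belong together, but those of Col-O shoots deviated together over all genes (r = 0.45, 0.18 and 0.19). Matched by number in this way, the IAA value of ABF1 lay below the mock value in 3 of 3 pairs. For how many of all genes the 3 pairs point the same way was not counted. With the replicate as a block ABF1 was not called (-0.62 ± 0.20, edgeR adjusted p = 0.0964). EEL gave 0.75 ± 0.27 in Col-O shoots (edgeR adjusted p = 0.163) and 0.65 ± 0.29 in aba2-3 shoots (adjusted p = 0.387), on the log2 scale. The IAA libraries of EEL lay above the mock libraries in both genotypes, at 4.21 to 7.54 CPM against 3.29 to 4.06 CPM in Col-O and at 4.40 to 5.94 CPM against 2.64 to 3.66 CPM in aba2-3. GBF3 in aba2-3 shoots stood at 43.8, 32.6 and 26.7 CPM in mock and at 60.9, 47.7 and 49.2 CPM with IAA (0.62 ± 0.20, edgeR adjusted p = 0.137). Its mock and IAA libraries did not overlap. AREB3 in Col-O shoots lay between 24.8 and 27.4 CPM in mock and between 18.7 and 20.3 CPM with IAA, also without overlap (-0.41 ± 0.15, edgeR adjusted p = 0.177). None of these differences passed the threshold, and whether the IAA response differs between genotypes gave 0 calls among the members in root and in shoot, where 1.32% and 0.00451% of all genes were called. At an unadjusted p under 0.05 there were 0 members in either organ, and DESeq2 called 0. Whether the IAA response of Col-O differs between root and shoot gave 0 calls too, with 0 at an unadjusted p under 0.05 and 0 by DESeq2, where 0.997% of all genes were called, 0.542% with the higher response in root and 0.456% with the lower.

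Set directly against IAA, ABA libraries were higher for the same 6 members in each organ. Of all genes, 8.31% were called higher and 7.25% lower in this comparison in roots (15.6% in all), and 6.1% and 4.13% in shoots (10.2% in all). The log2 difference was largest for ABF3 in roots, 3.16 ± 0.18 (edgeR adjusted p = 3.03e-12), and for ABI5 in shoots, 2.35 ± 0.25 (adjusted p = 2.18e-07). ABF1 stood at 1.37 ± 0.20 in both organs. These comparisons share the ABA libraries with those against mock.

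Without treatment, aba2-3 shoots held less ABF3 and GBF3 RNA than Col-O shoots, and no member was called in mock roots. Of all genes, 1.78% were called lower in aba2-3 mock shoots, against 2 of 8 members, and 0.853% higher, against 0 of 8 (2.63% in all). In mock roots 3.26% were called higher and 3.92% lower (7.19% in all), against 0 of 8 members. In mock roots no member had an unadjusted p under 0.05, and DESeq2 called 0. ABF3 stood at 97.1, 109 and 107 CPM in Col-O and at 61.2, 64.6 and 38.1 CPM in aba2-3 mock shoots. The groups do not overlap, and the log2 fold change was -0.93 ± 0.17 (edgeR adjusted p = 0.00271). GBF3 stood at 80.0, 66.9 and 48.8 CPM in Col-O and at 43.8, 32.6 and 26.7 CPM in aba2-3 mock shoots. These groups do not overlap either, and the log2 fold change was -0.92 ± 0.20 (edgeR adjusted p = 0.00996). The ABF3 call was lost only when the compared groups were fitted alone (adjusted p = 0.0815). The GBF3 call was lost in 5 of 15 alternatives, among them without Col-O mock shoot replicate 1, the library with low shoot genes (-0.75, adjusted p = 0.0912). The genotype comparisons share their Col-O mock libraries with the ABA comparisons, so low values of aba2-3 and high values with ABA are set against the same 3 libraries.

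With IAA in both genotypes, ABF3 was again lower in aba2-3 shoots, at 68.4, 46.6 and 45.3 CPM against 95.9, 99.7 and 90.8 CPM in Col-O. The log2 fold change was -0.83 ± 0.17 (edgeR adjusted p = 0.0137), and 0.673% of all genes were called lower there, 0.487% higher and 1.16% in all. This call was lost in 6 of 15 alternatives, among them without aba2-3 IAA shoot replicate 3 (-0.72, edgeR adjusted p = 0.132). That library is the shallowest, with an estimated 7.68% of root RNA. ABI5 at -0.92 ± 0.27 (edgeR adjusted p = 0.108) and GBF3 at -0.61 ± 0.20 (adjusted p = 0.143) were not called. DESeq2 called ABI5 (-0.94, adjusted p = 0.0447), and a fit of the compared groups alone called GBF3 (-0.60, edgeR adjusted p = 0.0302). In IAA-treated roots 0 members were called, where 1.06% of all genes were called higher and 0.654% lower (1.72% in all), and 0 had an unadjusted p under 0.05 or a DESeq2 call.

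In mock libraries, root and shoot differed for about as large a share of the members as of all genes. In Col-O mock libraries 5 of 8 members were called, 2 higher and 3 lower in root, where 24.3% and 25.6% of all genes were called in these directions (49.9% in all). In aba2-3 it was 4 of 8, 2 in each direction, where 26.3% and 27.7% of all genes were called (53.9% in all). ABF1 was the root member of the family, with a root minus shoot difference of 1.64 ± 0.20 on the log2 scale in Col-O (edgeR adjusted p = 3.20e-07) and 1.37 ± 0.20 in aba2-3 (adjusted p = 3.13e-06). ABF1 libraries of every root group lay above those of every shoot group, ABA included. EEL leaned the same way, with 0.65 ± 0.27 in Col-O (edgeR adjusted p = 0.049969, lost in 10 of 16 alternatives) and 1.19 ± 0.28 in aba2-3 (adjusted p = 0.000732). ABI5 was lower in roots, by a log2 difference of -1.30 ± 0.26 in Col-O (edgeR adjusted p = 0.000148) and -1.18 ± 0.26 in aba2-3 (adjusted p = 0.000449). ABF2 was lower in roots too, at -0.64 ± 0.17 (edgeR adjusted p = 0.00217) and -0.71 ± 0.17 (adjusted p = 0.000773).

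ABF3 was lower in roots than in shoots of Col-O, by -1.08 ± 0.17 on the log2 scale (edgeR adjusted p = 1.01e-05). In aba2-3 the value was -0.29 ± 0.17 (adjusted p = 0.158) and was not called. The difference between these organ contrasts was 0.79 ± 0.24 (edgeR adjusted p = 0.0961), so it is not shown to differ between genotypes, although DESeq2 called it (0.81, adjusted p = 0.0242). That test was added after the data were seen. At an edgeR adjusted p under 0.05 that test called 0 of 8 members and 1.54% of all genes. At an unadjusted p under 0.05 it held 2 of 8 members, and no share of all genes was taken at that looser threshold. ABF4 and AREB3 were called between organs in neither genotype, and their levels outside ABA ran from 32.2 to 52.3 CPM and from 18.7 to 33.9 CPM over 24 libraries. GBF3 was called in neither genotype too, at -0.35 ± 0.19 in Col-O (edgeR adjusted p = 0.138) and 0.25 ± 0.20 in aba2-3 (adjusted p = 0.288).

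All 5 root groups of ABF1 ranked above its 5 shoot groups by mean level. For ABF2, ABF3, ABF4, ABI5 and GBF3 the ABA groups held the highest and the second highest mean. For ABF3 these 2 groups overlapped with each other (440 ± 78.0 CPM in root, 435 ± 6.25 CPM in shoot), and a gap separated them from Col-O mock shoots at 104 ± 6.23 CPM. Below that, ABF3 formed a step between IAA-treated Col-O shoots at 95.5 ± 4.48 CPM and aba2-3 mock shoots at 54.6 ± 14.4 CPM. From there down to aba2-3 IAA roots at 44.1 ± 2.65 CPM every neighbouring pair of groups overlapped. For GBF3 the ABA shoots at 261 ± 32.4 CPM stood above ABA roots at 222 ± 14.6 CPM without overlap, and all 8 lower groups overlapped with their neighbours, from 80.4 ± 5.08 CPM in Col-O IAA shoots to 34.4 ± 8.66 CPM in aba2-3 mock shoots. For ABF4 all 8 groups without ABA overlapped with their neighbours, between 48.9 ± 2.82 CPM in aba2-3 mock roots and 37.4 ± 5.39 CPM in aba2-3 IAA shoots. For AREB3 all 10 groups overlapped with their neighbours, between 28.9 ± 4.46 and 19.6 ± 0.805 CPM.

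Over the 30 libraries, ABF2, ABF3, ABF4, ABI5 and GBF3 varied together. Pearson's r of log2(CPM + 1) was 0.95 for ABF3 with each of ABF2, ABI5 and GBF3, and 0.92 for ABF2 with ABI5. GBF3 stood at 0.89 with ABF2 and with ABI5, and ABF4 at 0.89 with ABF2, 0.88 with ABF3, 0.87 with GBF3 and 0.81 with ABI5. ABF1 correlated with ABF4 at 0.59 and with the other members at 0.38 or less. These coefficients are descriptions over libraries that fall into ABA and other groups, which carry much of the relation. Among all genes tested, the closest to ABF3 were HAB1, a clade A phosphatase (r = 0.975), and AFP3, an ABI5-binding protein (0.97). The closest to ABF2 were DREB1A, a cold-response factor (0.969), and NYE1, a gene of chlorophyll breakdown (0.968). The closest to ABF4 were AT1G73390 (0.976) and LTI65 (0.973), to ABI5 MAN7 (0.961) and AT3G27250 (0.959), and to GBF3 AT1G78070 (0.962) and AOX2 (0.959). For ABF1 they were AT5G26010 (0.98) and UGE2 (0.966). EEL and AREB3 had no gene above 0.791 and 0.80.

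The rest of the pathway was described by lists chosen with earlier results known. With ABA, 6 of the 10 tested PYR/PYL receptors fell in each organ, and 2 rose in roots and 1 in shoots, out of 14 listed. Among all genes 7.4% were called lower and 8.31% higher in roots, and 4.67% and 4.98% in shoots. The median log2 fold change of the receptors was -1.18 in roots and -1.28 in shoots, against -0.03 and -0.07 over all genes. PYL4 fell from 371 ± 32.6 to 28.6 ± 7.89 CPM in roots, a log2 fold change of -3.70 ± 0.17 (adjusted p = 5.89e-14 by edgeR), and, in shoots, from 542 ± 38.3 to 25.3 ± 1.25 CPM. PYL6 fell in both organs, while PYL7 rose in roots from 4.26 ± 0.966 to 28.1 ± 3.73 CPM. The second receptor that rose in roots, and the one in shoots, was PYL9, named after its values were seen.

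The clade A phosphatases moved the other way. All 9 rose in roots, with a median log2 fold change of 3.92, and 8 of 9 rose in shoots, with a median of 3.31. The share of all genes called higher was 8.31% in roots and 4.98% in shoots. HAI1 rose from 3.68 ± 1.63 to 238 ± 45.7 CPM in roots (log2 fold change 6.01 ± 0.51; adjusted p = 2.66e-09 by edgeR) and, in shoots, from 3.45 ± 1.46 to 124 ± 13.5 CPM. HAI3 and HAI2, its relatives, started under 1 CPM and reached 166 ± 42.7 and 66.8 ± 16.9 CPM in ABA roots. Of the 3 SnRK2 kinases only SNRK2.6 was called, higher in roots at 34.7 ± 12.8 against 16.5 ± 3.34 CPM. Of 9 regulators of ABI5, 4 rose in each organ, and these were the AFP proteins AFP1 to AFP4, which bind ABI5. AFP1 rose from 17.8 ± 4.87 to 354 ± 52.7 CPM in roots (log2 fold change 4.31 ± 0.21; adjusted p = 1.67e-13 by edgeR) and, in shoots, from 14.7 ± 4.28 to 240 ± 4.54 CPM. The E3 ligase parts KEG, DWA1 and DWA2, ABI3 and HY5 were called in neither organ.

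Other bZIP genes of the same groups moved in both directions. Of 8 tested, 2 rose and 3 fell with ABA in roots, and 1 rose and 1 fell in shoots. Over all genes 8.31% were called higher and 7.4% lower in roots, and 4.98% and 4.67% in shoots. GBF2, another G-box factor, rose from 127 ± 6.73 to 564 ± 26.0 CPM in roots (log2 fold change 2.15 ± 0.16; adjusted p = 2.26e-10 by edgeR) and, in shoots, from 86.2 ± 16.8 to 358 ± 69.1 CPM. FD, known from flowering, fell from 13.1 ± 1.15 to 3.03 ± 1.04 CPM in roots. FDP was called lower in roots from 0.294 ± 0.222 CPM to 0 counts, a level too low for a fold change. The other root calls were GBF1, higher, and GBF4, lower, both named after their values were seen. All 13 listed genes that ABF-type or G-box factors are known to drive rose in roots, with a median log2 fold change of 3.67, and 12 rose in shoots, with a median of 2.25. LEA4-5, a late embryogenesis abundant protein, rose from 40.4 ± 15.0 to 1820 ± 481 CPM in roots and from 28.1 ± 10.4 to 686 ± 164 CPM in shoots. EM6, a seed protein gene bound by ABI5, rose from 0.738 ± 0.485 to 31.2 ± 13.6 CPM in roots. RD20 had the largest log2 fold change of the targets in each organ. It rose from 1.21 ± 1.15 to 59.9 ± 54.6 CPM in roots, with a wide spread, and from 26.7 ± 8.12 to 700 ± 49.6 CPM in shoots.

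Fewer listed genes were called in the other comparisons. With IAA in Col-O roots 1 of 10 tested receptors rose (PYL5), 2 of 13 targets fell (DREB2A and RD26) and no gene of the other lists was called, where 5.57% of all genes were called. In Col-O shoots no listed gene was called, where 2.22% of all genes were. In aba2-3 mock roots 4 of 9 phosphatases, 1 of 9 ABI5 regulators and 3 of 13 targets were lower than in Col-O, where 3.92% of all genes were. Higher there were 2 of 10 receptors and 1 of 13 targets, against 3.26% of all genes. In mock shoots 4 of 9 phosphatases, 4 of 9 ABI5 regulators and 3 of 13 targets were lower, against 1.78% of all genes, and 1 of 10 receptors was higher, against 0.853%. No kinase and no other bZIP gene was called in either organ. Named after their values were seen, PP2CA stood at 9.66 ± 0.326 CPM in aba2-3 against 21.5 ± 2.19 CPM in Col-O mock shoots, and AFP3 at 29.1 ± 5.61 against 66.9 ± 6.82 CPM. RAB18 stood at 0.465 ± 0.176 against 3.30 ± 0.882 CPM, and the receptor PYL6 at 72.5 ± 1.19 against 33.0 ± 3.15 CPM.

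**Figure D4:**
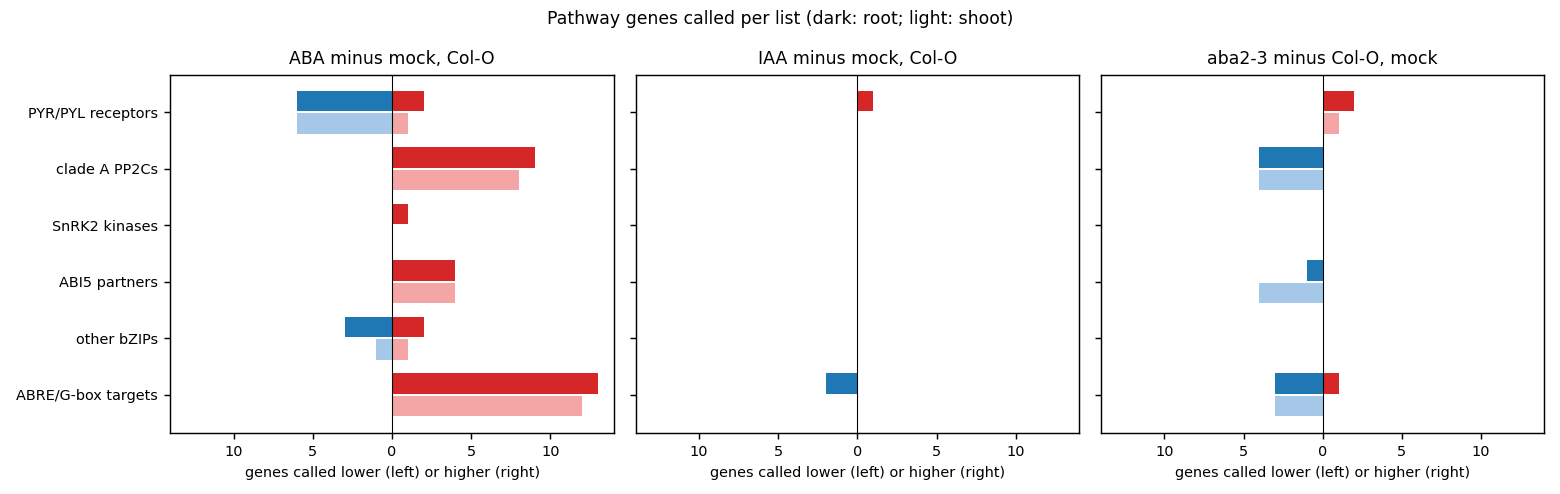
Number of genes called higher (red, right) and lower (blue, left) in 6 lists for ABA, IAA and genotype comparisons, dark for root and light for shoot. With ABA the bars reach 13 targets and 9 phosphatases higher in root, and 6 receptors lower in each organ, while the IAA panel holds 3 called genes.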

How the data were processed

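The 30 samples were grouped by title into 10 groups of 3. Per the file headers, the authors' files hold for every gene its count, its CPM and its RPKM. In 30 of 30 files the deposited counts proved whole, the deposited CPM equalled the count over the library total, and the deposited RPKM equalled that CPM over kilobases of exon. Per the labels' protocols, RNA was made into cDNA with the SMARTer kit. The submitters' processing notes list STAR, Subread, featureCounts, edgeR and limma and the build TAIR10; parameters and strand use are not given in the sources used here.

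From the counts, edgeR 4.0.16 (R 4.3.3, limma 3.58.1) fitted all 30 libraries with 1 mean per group, TMM scaling and filterByExpr, which left 22156 genes, and ran quasi-likelihood F tests, two-sided, with Benjamini-Hochberg adjustment over all genes. A gene was called at an adjusted p under 0.05. Each SE was taken as the absolute log2 fold change divided by sqrt(F). There were 19 comparisons, with no adjustment across them. The script was tested on simulated counts. Intervals and limits for 0 counts cover counting error only.

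The members, the gene lists and the 5% limit for other-organ RNA were chosen with earlier results of these data known. The test of the organ difference between genotypes, and the fit without the 2 shoot libraries that stand apart, were added after the data were seen. Pathway genes named by rule are among the 3 called genes of largest change per list and ABA comparison, and not all of these are named. Similar genes are the 2 of highest r. Other-organ shares use 338 shoot and 43 root genes. By the medians of the aba2-3 IAA groups, these had over 20 CPM in their own organ and 50 times less in the other. No member is among them. Same-numbered replicates of Col-O IAA and mock shoots deviated together (r = 0.45, 0.18 and 0.19); in the other compared groups they did not in every pair. Gene windows were read from RefSeq TAIR10.1, where 26712 of 26712 shared protein-coding genes overlap the deposited positions.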

Additional observations from a re-analysis of the deposited data

Results flagged for a closer look

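Whether the ABA response of ABF3 differed between organs depended on the fit. With all groups and no block, the root response exceeded the shoot response by 1.09 on the log2 scale (edgeR adjusted p = 0.0166). In each organ all 3 ABA libraries lay above all 3 mock libraries, which shows a response in each organ and not a difference between them.

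In the same fit the ABA response of ABF2 differed in the same direction, by 0.91 on the log2 scale (edgeR adjusted p = 0.0422). All ABA libraries of ABF2 lay above its mock libraries in each organ, which again does not bear on the difference. The adjusted p ranged from 0.00536 to 0.136 over its 22 alternatives, and that of ABF3 from 0.00062 to 0.151. With root and shoot libraries of the same number taken as the same plant batch, neither was called (ABF3 1.04, edgeR adjusted p = 0.137, and ABF2 0.87, adjusted p = 0.136). That fit held only the compared groups and called 0.113% of all genes, against 0.732% in those groups without the block and 1.72% in the first fit. Both members were called in those groups without the block. Both differences were smaller without the libraries with raised RNA of the other organ (ABF3 0.91, ABF2 0.79), where 1 ABA root library remained.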

How the results depend on the processing

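Over the 19 comparisons, 38 values of single members were called; 31 kept their call in every alternative run, 7 lost it in at least 1, and 0 changed sign. Of 114 uncalled values, 9 gained a call in at least 1 alternative and 47 changed sign in at least 1. In IAA-treated aba2-3 shoots the count of members called went from 0 to 2 with the compared groups alone (GBF3 and ABF1) and to 1 with DESeq2. Of all genes, 1.92% were called there in the first fit, 6.74% with the compared groups alone and 3.22% with DESeq2. For genotype in mock shoots the count of members called went from 2 to 1 without the 2 shoot libraries that stand apart (Col-O mock replicate 1 and aba2-3 IAA replicate 3). It went to 0 with the compared groups alone. The shares of all genes were 2.63% at first, 1.12% without those 2 libraries and 1.47% with the compared groups alone. Genotype in IAA-treated shoots called 1.16% of all genes at first, 0.74% with covariates for other-organ RNA and 0.374% without the libraries with raised shares. It called 0.457% without the 2 shoot libraries that stand apart, 2.78% with the compared groups alone and 2.99% with DESeq2. The count of members called there went from 1 to 0 with those covariates and without the libraries with raised shares. It went to 0 without the 2 shoot libraries that stand apart too, and to 2 both with the compared groups alone and with DESeq2. For the organ difference in the ABA response it went from 2 to 1 without a filter on low counts and to 1 with the covariates. It stayed at 2 with the compared groups alone and went to 0 when a replicate block by plant batch was added to that fit. In that block a root and a shoot library of the same number count as 1 batch. Without the libraries with raised shares 1 ABA root library remained, and the differences were smaller, 0.91 for ABF3 and 0.79 for ABF2. That organ difference in the ABA response was called for 1.72% of all genes at first and 0.906% without the filter. With the covariates it was 2.16%. With the compared groups alone it was 0.732%, and with the plant batch block added to that fit 0.113%. For the organ difference between genotypes the count of members called went from 0 to 1 with DESeq2, where the share of all genes went from 1.54% to 4.87%. The cause was not tested, except that fits with fewer libraries or groups hold fewer samples. RLE size factors, a mean count of at least 20 and the replicate block by number alone left every count within 1.5 times of the first.

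Leaving out 1 library at a time, the number of members called ranged from 0 to 1 for IAA in Col-O shoots, 5 to 7 for ABA in shoots, 0 to 1 for IAA in aba2-3 shoots, 1 to 2 for genotype in mock shoots, 0 to 2 for genotype in IAA shoots, 4 to 5 for organ in each genotype and 0 to 2 for the organ difference in the ABA response. It stayed at 6 for ABA in roots and for ABA against IAA in both organs, and at 0 in the others. Shares of all genes called in these fits are not given here, so the counts are not set against them. Calls gained by leaving out a library were AREB3 with ABA in shoots, given above, GBF3 with IAA in aba2-3 shoots without mock shoot replicate 1 (0.88, edgeR adjusted p = 0.0323), ABF1 with IAA in Col-O shoots without IAA shoot replicate 1 (-0.86, edgeR adjusted p = 0.0247), ABI5 for genotype in IAA shoots without Col-O IAA shoot replicate 1 (-1.14, 0.0401), GBF3 between Col-O organs without mock shoot replicate 3 (-0.57, 0.0266) and ABF3 between aba2-3 organs without mock shoot replicate 3 (-0.52, 0.00916). With the replicate block 6 members were called with ABA in each organ, where 15.6% of all genes were called in roots and 9.57% in shoots. The only call lost was that of EEL between Col-O organs (edgeR adjusted p = 0.0514), where 49.8% of all genes were called. In place of TMM-scaled CPM, the deposited CPM moved 12 of 90 group levels by more than 1 SD. Depth limits ABI5 and EEL, at 14 and 17 counts in the shallowest library, and DPBF2, which was not detected.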
